A study of Mus musculus with 12 samples.

Results

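The genes examined were the Wnt ligands, the Frizzled and Lrp receptors and the best-known intracellular and secreted components of the Wnt pathway in cultured neural stem cells of the mouse. Members were taken by gene symbol (the Wnt, Fzd, Sfrp, Dkk, Rspo, Dvl, Tle and Daam families, Lrp5 and Lrp6, Lgr4 to Lgr6, Porcn, Wif1, Apc, Axin, Gsk3, Lef1 and Tcf7, and the membrane inhibitors Apcdd1, Rnf43, Nkd and Notum). The array carried 69 such genes, and 42 of them were measured, meaning that at least 1 of their probes had a detection p-value under 0.05 on 4 or more of the 12 arrays. Over the whole array, 10787 of 17709 genes were measured by the same criterion. For this, 3 measured members depended on the BMP4 group: Wif1 was detected on the 4 BMP4 arrays only, and Fzd6 and Fzd8 on those 4 and on 3 others. A gene measured through the group in which it is high had to differ, so for these 3 the change is in part set by the criterion.

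Wnt proteins are lipid-modified secreted ligands that bind a Frizzled receptor, together with Lrp5 or Lrp6 where the signal runs through β-catenin. In the absence of ligand, a destruction complex built on Axin and Apc, with the kinase Gsk3, marks β-catenin for degradation. With ligand, Dishevelled recruits Axin to the membrane, β-catenin accumulates and enters the nucleus, and there it displaces Tle corepressors from Tcf and Lef factors. Other Wnt signals act without β-catenin, through the cytoskeleton or through calcium. In the postnatal subventricular zone, Wnt signals are known for roles in stem cell self-renewal and in the generation of neurons and glia.

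All cells came from the subventricular tissue of CD1 mice at postnatal day 1, were grown as neurospheres in medium with 20 ng/ml epidermal growth factor (EGF), were infected with a retrovirus and were sorted for green fluorescent protein (GFP). The BMP4 group (4 arrays) carried the GFAP-GFP retrovirus and was cultured after sorting for 7 days in 1 ng/ml EGF with 20 ng/ml bone morphogenetic protein 4. The LIF_NOG group (4 arrays) carried the same virus and was cultured for the same time in 1 ng/ml EGF with 20 ng/ml leukemia inhibitory factor (LIF) and 250 ng/ml noggin, a protein that binds and blocks BMPs. The Neurosphere group (4 arrays) carried a control GFP retrovirus and was harvested right after sorting, with no differentiation culture. Both differentiated groups therefore also differ from the Neurosphere group in virus, EGF and time in culture, and these cannot be told apart from the cytokines. The BMP4 and LIF_NOG groups differ only in the cytokines, as far as the labels say. The labels name no animal or culture for any sample, so the spread behind each p-value may be technical rather than biological.

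The values are log2 intensities of one probe per gene, so levels are compared between groups and never between genes. In these bulk samples, fewer cells of a type and less RNA per cell cannot be told apart. Between 38.6% and 42.0% of probes were detected per array. The Neurosphere 1 column of the raw table did not stand in the row order of the other columns and was realigned, and the counts of called members are given with and without that array. LIF_NOG 2 stood apart from the other LIF_NOG arrays, at 11.0 against 36.0 to 49.8 on the second principal component. Of 42 members, 18 had their lowest LIF_NOG value on it and 11 their highest, and the like shares of all genes were not computed. Summed astrocyte marker intensity was 83469 to 127751 in BMP4 arrays, 30669 to 46502 in LIF_NOG arrays and 21198 to 23366 in Neurosphere arrays. Summed intensity of 8 measured proliferation markers was 421 to 1021 in BMP4 arrays, 2238 to 10219 in LIF_NOG arrays and 15775 to 16361 in Neurosphere arrays. For the 6 measured mural, fibroblast and meningeal markers the sums were 1213 to 1439 in BMP4 arrays, 1366 to 5660 in LIF_NOG arrays and 6622 to 9386 in Neurosphere arrays. The brightest markers weigh most in such sums, and these 6 did not move together. By the calls defined below, 2 were higher and 2 lower in BMP4 than in Neurosphere. In LIF_NOG against Neurosphere 0 were higher and 2 lower, and in BMP4 against LIF_NOG 2 were higher and 1 lower. Of 9 measured oligodendrocyte lineage markers, 0 were higher and 7 lower in BMP4 than in LIF_NOG. Against Neurosphere, 0 were higher and 4 lower in BMP4, and 4 higher and 2 lower in LIF_NOG. Their sums overlapped, at 28134 to 30224 in BMP4 arrays, 29024 to 32997 in LIF_NOG arrays and 26010 to 31392 in Neurosphere arrays. Over all measured genes 54.3% were called in BMP4 against Neurosphere, 33.1% in LIF_NOG against Neurosphere and 43.9% in BMP4 against LIF_NOG. None of the 9 microglial markers on the array was measured. The part of these shifts in the results on Wnt genes was not tested.

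A gene was called where the Benjamini-Hochberg adjusted p of the limma fit over all 10787 measured genes was under 0.05. Log2 fold changes are given ± the SE of the fit, and group means ± SD over 4 arrays. In BMP4 against Neurosphere, 12 members rose, 8 fell and 22 did not pass, against a background of 54.3% of all measured genes called (26.6% higher and 27.7% lower). Against the same Neurosphere arrays, LIF_NOG had 8 members that rose, 1 that fell and 33 that did not pass, against a background of 33.1% called (16.5% higher and 16.5% lower). In BMP4 against LIF_NOG, 8 rose, 10 fell and 24 did not pass, against a background of 43.9% called (20.7% higher and 23.2% lower). The members' share called was thus near or below that of all genes, and the median log2 fold change of the members was 0.05, 0.05 and 0.09 in the same order of comparisons, against 0.00, -0.01 and -0.00 for all genes. The comparisons with Neurosphere share the Neurosphere arrays. Without Neurosphere 1, 16, 10 and 19 members were called. Arrays also fall into 2 sets by their row order in the authors' table, with all 4 BMP4 arrays but 1 LIF_NOG and 1 Neurosphere array in the same set. Row order and group thus largely coincide in both comparisons with BMP4. With row order as a block, where the LIF_NOG and Neurosphere arrays alone inform on the difference between sets, 15, 11 and 16 members were called. Without LIF_NOG 2, 16 members were called in LIF_NOG against Neurosphere, the 9 of the full set and Wnt5a, Fzd5, Fzd9, Fzd10, Tle2, Tle5 and Rnf43. Wif1, Fzd6 and Fzd8 are among the rises, and without them 9 members rose in BMP4 against Neurosphere and 6 in BMP4 against LIF_NOG. In all, 23 members were called in at least 1 comparison, 19 in none, and 3 in all 3 comparisons, namely Wnt9a, Tle6 and Tcf7l2. The like shares of all measured genes were not computed, so these counts only describe the members.

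**Figure D1:**
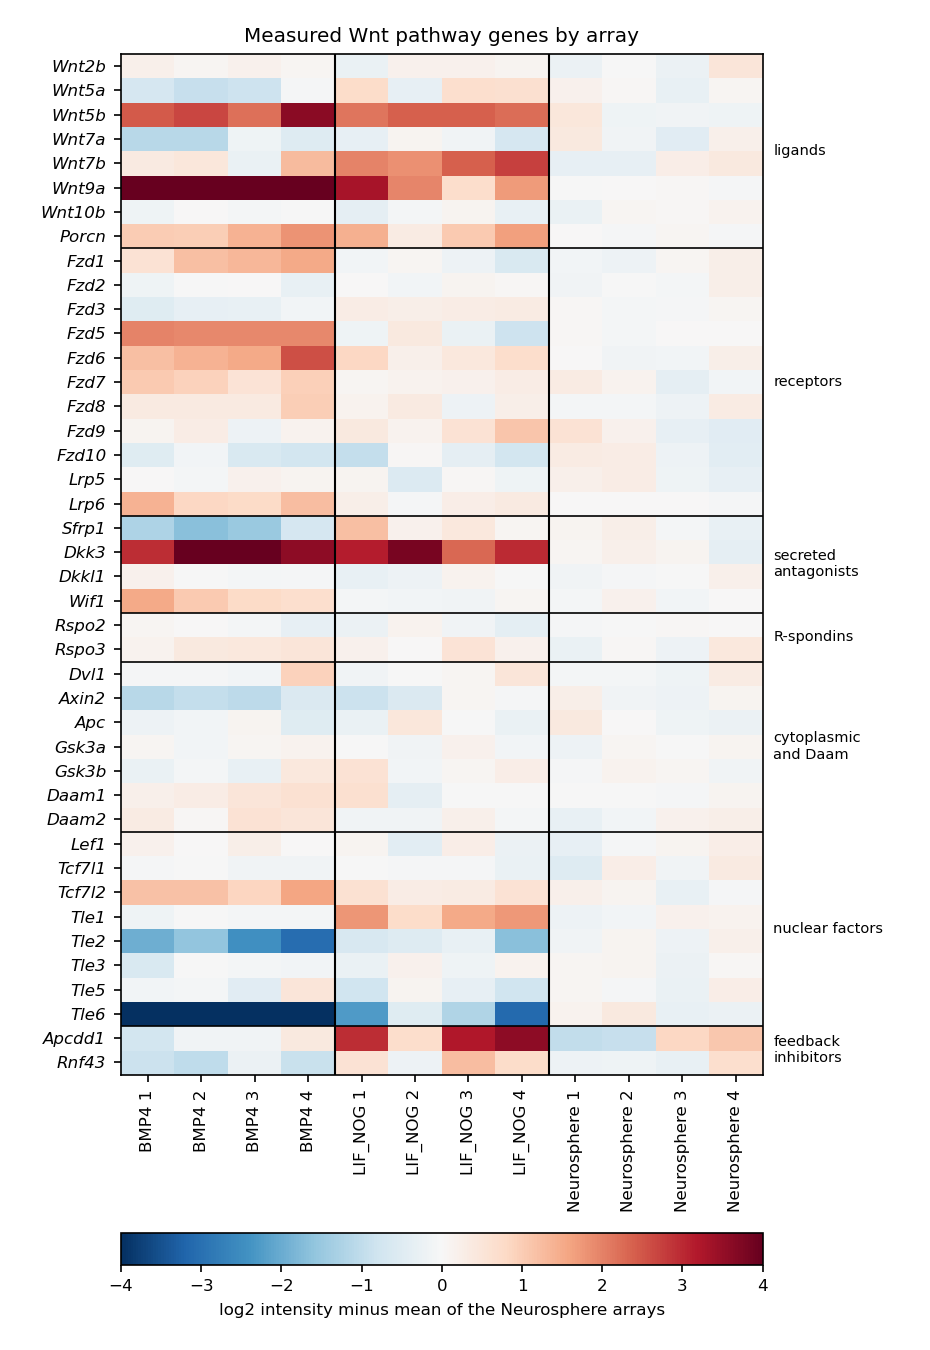
Heat map of the 42 measured members (rows, by role) on the 12 arrays (columns). Colour is log2 intensity minus the mean of the 4 Neurosphere arrays, red higher and blue lower, with differences past 4 drawn at the end of the scale. Wnt9a and Dkk3 are red on all BMP4 and LIF_NOG arrays, Tle6 is blue on them, and most rows stay pale.

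**Figure D2:**
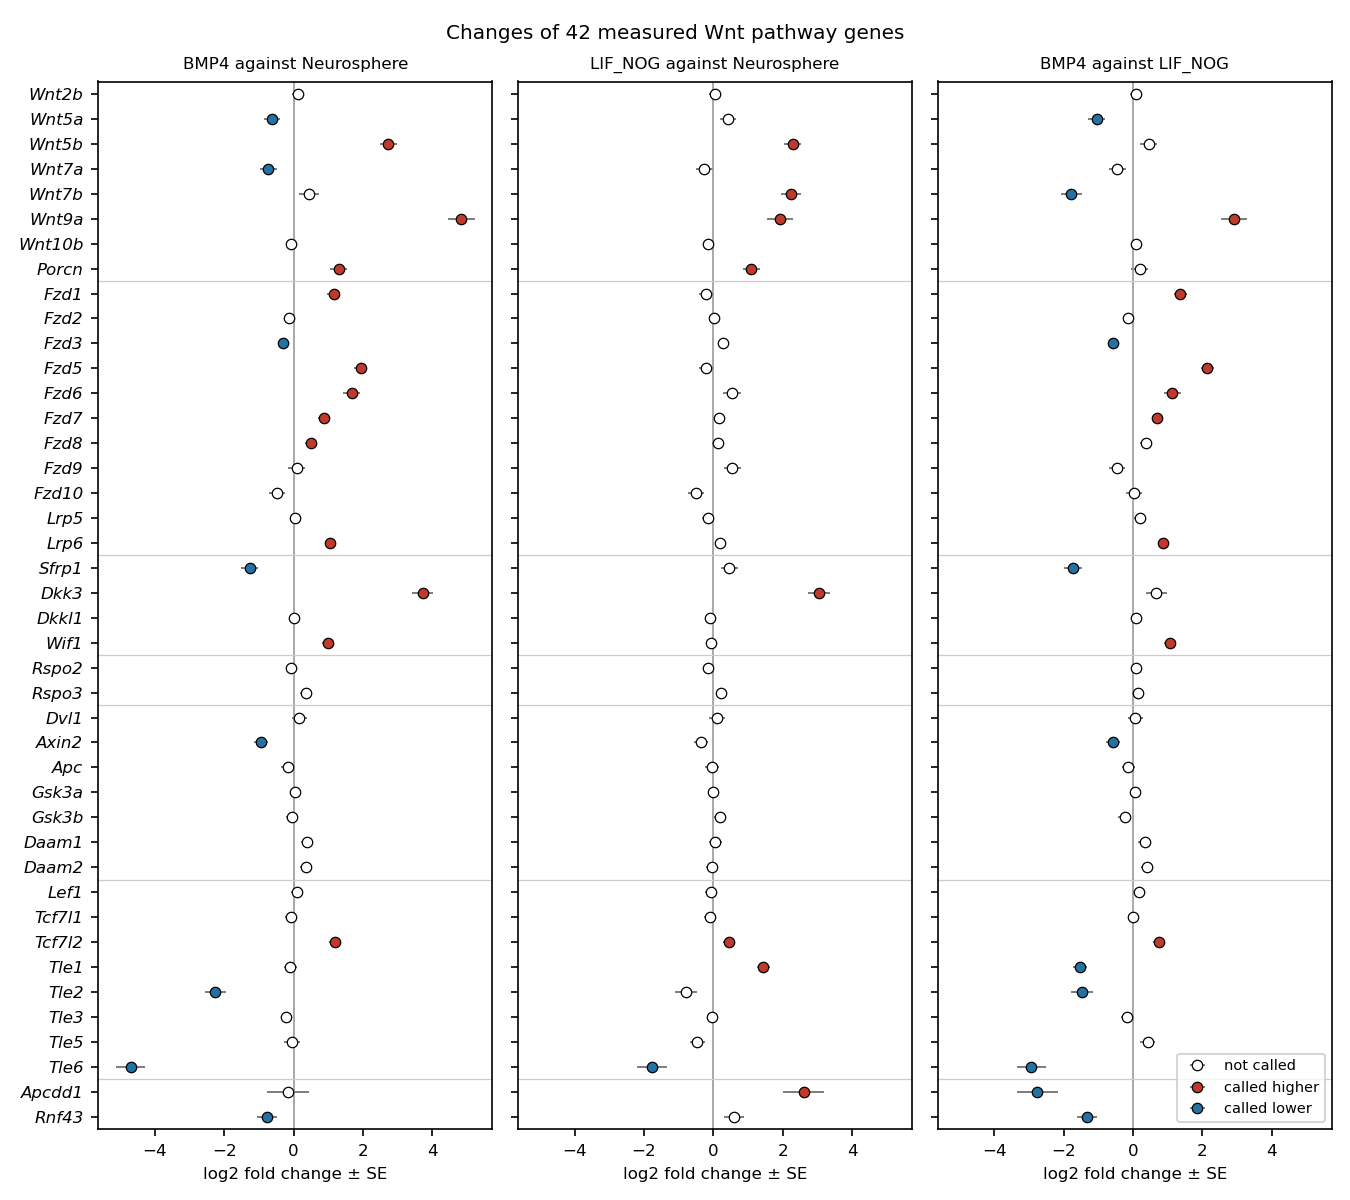
Log2 fold change ± SE of the 42 measured members in BMP4 against Neurosphere, LIF_NOG against Neurosphere and BMP4 against LIF_NOG. Filled points passed an adjusted p of 0.05. The Frizzled and Lrp receptors hold 6 red points in the left panel and none in the middle panel. Those 6 include Fzd6 and Fzd8, which met the detection criterion only with the BMP4 arrays. Of all measured genes, 26.6% were called higher in the comparison on the left and 16.5% in the middle one.

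Of 19 ligand-side genes on the array (the Wnt genes and Porcn), 8 were measured. Of these 8, 3 rose and 2 fell in BMP4 against Neurosphere, 4 rose and 0 fell in LIF_NOG against Neurosphere, and 1 rose and 2 fell in BMP4 against LIF_NOG, where the shares of all measured genes called were 54.3%, 33.1% and 43.9%. Wnt9a, Wnt5b, Wnt7b and Porcn carried the rises, and Wnt5a, Wnt7a and Wnt7b the falls. The change of largest size among all members was that of Wnt9a in BMP4 against Neurosphere.

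Wnt9a, a ligand best known from limb joint formation and blood stem cell development, had log2 intensities of 9.85, 9.76, 9.46 and 9.18 on the BMP4 arrays, 8.02, 6.69, 5.43 and 6.42 on the LIF_NOG arrays, and 4.71, 4.74, 4.76 and 4.67 on the Neurosphere arrays. The groups did not overlap: the BMP4 arrays were all high, the LIF_NOG arrays spread widely below them, and the Neurosphere arrays lay together at the bottom, where the probe was detected on 0 of 4. The log2 fold change was 4.84 ± 0.38 (adjusted p = 1.6e-07) in BMP4 against Neurosphere, which with the detection limit in place of the undetected signal is at least 25.4-fold higher. In LIF_NOG against Neurosphere it was 1.92 ± 0.38 (adjusted p = 0.0018), at least 3.36-fold higher, and in BMP4 against LIF_NOG it was 2.92 ± 0.38 (adjusted p = 3.2e-05). All 3 calls stood in each of the other settings tried. A second Wnt9a probe was detected on no array, so the values rest on a single probe.

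Wnt5b, a ligand known mainly for signals that do not use β-catenin, had log2 intensities of 7.57, 7.79, 7.30 and 8.73 on the BMP4 arrays, 7.24, 7.50, 7.52 and 7.34 on the LIF_NOG arrays, and 5.58, 4.94, 4.97 and 4.95 on the Neurosphere arrays. Every differentiated array lay above every Neurosphere array, while the BMP4 and LIF_NOG arrays overlapped. Wnt5b rose in BMP4 against Neurosphere (log2 fold change 2.74 ± 0.25, adjusted p = 6.3e-07) and in LIF_NOG against Neurosphere (2.29 ± 0.25, adjusted p = 2.6e-05). Between BMP4 and LIF_NOG its log2 difference of 0.45 ± 0.25 (adjusted p = 0.17) did not pass.

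The promoter windows of these 2 ligands are shown because they had the largest rises among the Wnt genes in BMP4 against Neurosphere. Each is the 250 bases before an annotated RefSeq start of the mouse assembly GRCm38.p6, read 5′ to 3′ on the strand of the gene, in lower case with the motif found in capitals. Wnt9a has 1 start in the RefSeq table, on the plus strand of chromosome 11 (chr11:59306680-59306929), and the capitals mark GGCGCC, a motif bound by BMP-activated Smad proteins. Wnt5b has 3 starts, all on the minus strand of chromosome 6. The window of its first listed start (chr6:119449387-119449636) holds CTTTGAT, a motif of Tcf and Lef factors, and that of its second (chr6:119467212-119467461) holds TTCNNNGAA, the motif of Stat factors. The array does not show which start was used.
Wnt9a: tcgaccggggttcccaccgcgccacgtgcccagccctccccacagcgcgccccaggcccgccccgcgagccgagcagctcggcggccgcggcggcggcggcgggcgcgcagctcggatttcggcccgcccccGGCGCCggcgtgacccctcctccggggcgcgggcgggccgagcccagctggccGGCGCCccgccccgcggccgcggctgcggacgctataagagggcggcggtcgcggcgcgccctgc
Wnt5b, first start: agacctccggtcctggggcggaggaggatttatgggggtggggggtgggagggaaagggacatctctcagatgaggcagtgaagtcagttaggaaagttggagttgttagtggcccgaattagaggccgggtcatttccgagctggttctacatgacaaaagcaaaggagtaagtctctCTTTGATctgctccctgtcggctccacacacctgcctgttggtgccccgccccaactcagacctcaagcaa
Wnt5b, second start: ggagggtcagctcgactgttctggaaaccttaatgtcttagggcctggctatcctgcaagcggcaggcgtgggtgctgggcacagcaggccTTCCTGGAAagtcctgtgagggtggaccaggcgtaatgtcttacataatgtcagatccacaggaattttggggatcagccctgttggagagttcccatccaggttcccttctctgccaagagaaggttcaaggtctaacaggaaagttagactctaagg
In the Wnt9a window GGCGCC occurs at 2 places, the farther beginning 118 bases before the start. In the Wnt5b windows CTTTGAT begins 71 bases and TTCCTGGAA 159 bases before the start. The third Wnt5b window and both windows of Tle6 hold none of the motifs searched.

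Motifs were searched on both strands in the 36 windows of the 26 measured members that the RefSeq table holds, and in all 32851 windows of the table. CTTTGAT was found in 1 member's window (Wnt5b) and in 3.21% of all windows, and its variant CTTTGAA in 1 (Gsk3a) and in 4.46%. TTCNNNGAA was found in 1 (Wnt5b) and in 7.02% of all windows. GGCGCC was found in 8 of the 36 windows, belonging to 7 members (Fzd9, Fzd10, Lef1, Tcf7l2, Tle3, Wnt2b and Wnt9a), and in 9.59% of all windows. Whether these shares differ was not tested. CTTTGAA and TTCNNNGAA can share bases. Of the 7 members with GGCGCC, Wnt9a and Tcf7l2 were called in BMP4 against Neurosphere and the other 5 were not. Over all measured genes 54.3% were called there. A match of letters is a description of the window and no binding was measured. The table holds no window for Apc, Apcdd1, Dkk3, Fzd2, Fzd3, Fzd6, Fzd8, Lrp5, Lrp6, Porcn, Rspo2, Rspo3, Sfrp1, Tle5, Wnt5a and Wnt7b.

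Wnt7b, a ligand that acts through β-catenin and is known for guiding blood vessel growth in the central nervous system, had log2 intensities of 5.39, 5.49, 4.78 and 6.29 on the BMP4 arrays, 7.02, 6.85, 7.42 and 7.77 on the LIF_NOG arrays, and 4.71, 4.70, 5.30 and 5.41 on the Neurosphere arrays. The LIF_NOG arrays were all above those of both other groups, which overlapped each other. Wnt7b was detected on 3 BMP4, 4 LIF_NOG and 2 Neurosphere arrays. It rose in LIF_NOG against Neurosphere (log2 fold change 2.23 ± 0.29, adjusted p = 9.8e-05) and fell in BMP4 against LIF_NOG (-1.78 ± 0.29, adjusted p = 0.00023). The value was 0.46 ± 0.29 (adjusted p = 0.22) in BMP4 against Neurosphere.

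The mean log2 intensity of Wnt7a, its close relative, was 6.84 ± 0.46 in BMP4, 7.30 ± 0.33 in LIF_NOG, and 7.57 ± 0.37 in Neurosphere, with overlapping groups. It fell in BMP4 against Neurosphere (log2 fold change -0.72 ± 0.24, adjusted p = 0.021), a call lost in 5 of 22 other settings, among them without Neurosphere 1 (adjusted p = 0.074). It did not pass in LIF_NOG against Neurosphere (-0.26 ± 0.24, adjusted p = 0.46) or in BMP4 against LIF_NOG (-0.46 ± 0.24, adjusted p = 0.15).

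Wnt5a, the ligand that defines β-catenin-independent signalling, had log2 intensities of 8.48, 8.23, 8.31 and 9.12 on the BMP4 arrays, 9.88, 8.84, 9.83 and 9.78 on the LIF_NOG arrays, and 9.33, 9.20, 8.88 and 9.23 on the Neurosphere arrays. The LIF_NOG arrays were high except LIF_NOG 2, the BMP4 arrays were low except BMP4 4, and through these 2 arrays the groups overlapped. Wnt5a fell in BMP4 against LIF_NOG (log2 fold change -1.05 ± 0.24, adjusted p = 0.0027), and a second probe gave a change of -1.17 that also passed. The remaining probe was undetected on all BMP4 arrays, where its signal was at least 1.66-fold lower than in LIF_NOG and at least 2.55-fold lower than in Neurosphere. On the representing probe the fall in BMP4 against Neurosphere (-0.62 ± 0.24, adjusted p = 0.041) was lost in 11 of 22 other settings, while the second probe fell by 1.02 on the log2 scale and passed. The probes disagreed in LIF_NOG against Neurosphere. The probe that represents the gene gave 0.43 ± 0.24 (adjusted p = 0.2), which did not pass but reached 0.68 (adjusted p = 0.011) without LIF_NOG 2, and the remaining probe gave -0.62 (adjusted p = 0.024).

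Porcn, the acyltransferase that attaches the lipid which Wnt proteins need for secretion and receptor binding, had log2 intensities of 6.09, 6.07, 6.46 and 6.89 on the BMP4 arrays, 6.49, 5.40, 6.13 and 6.71 on the LIF_NOG arrays, and 5.10, 5.05, 5.15 and 5.04 on the Neurosphere arrays. Every BMP4 and LIF_NOG array was above every Neurosphere array, and the 2 differentiated groups overlapped. Porcn rose in BMP4 against Neurosphere (log2 fold change 1.30 ± 0.25, adjusted p = 0.00047) and in LIF_NOG against Neurosphere (1.10 ± 0.25, adjusted p = 0.0041), and its difference between BMP4 and LIF_NOG was 0.20 ± 0.25 (adjusted p = 0.57). The remaining measured ligands, Wnt2b and Wnt10b, passed in no comparison. Mean log2 intensities of Wnt2b were 5.58 ± 0.07 in BMP4, 5.49 ± 0.21 in LIF_NOG, and 5.45 ± 0.33 in Neurosphere, and those of Wnt10b were 4.94 ± 0.09 in BMP4, 4.85 ± 0.22 in LIF_NOG, and 5.01 ± 0.18 in Neurosphere. Wnt3 and Wnt4 were each detected on 1 array. Wnt1, Wnt2, Wnt3a, Wnt6, Wnt8a, Wnt9b, Wnt10a, Wnt11 and Wnt16 were detected on none.

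**Figure D3:**
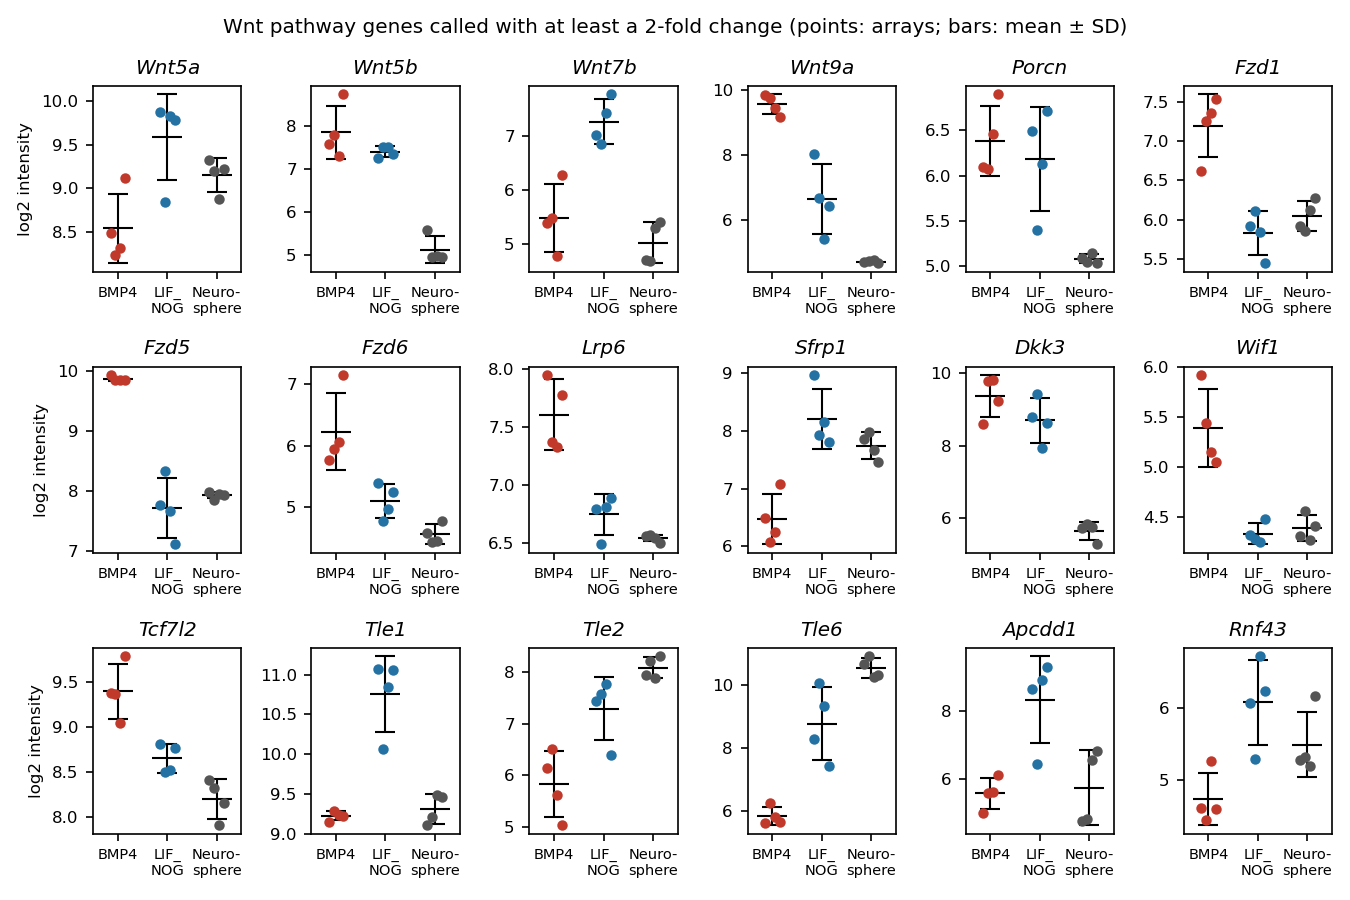
Log2 intensity on each array (points) with the group mean ± SD (bars) for the 18 members called with at least a 2-fold change in some comparison, BMP4 in red, LIF_NOG in blue and Neurosphere in grey. Each panel has its own vertical scale. Fzd1, Fzd5, Fzd6, Lrp6 and Wif1 are high on all BMP4 arrays alone, Wnt7b and Tle1 on all LIF_NOG arrays alone.

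Of 11 measured receptor genes (9 Frizzled genes, Lrp5 and Lrp6), 6 rose and 1 fell in BMP4 against Neurosphere, and 5 rose and 1 fell in BMP4 against LIF_NOG. Over all measured genes 54.3% and 43.9% were called in these comparisons, and whether the receptors differ from that was not tested. In LIF_NOG against Neurosphere 33.1% of all measured genes were called, and a difference from that share was not tested either. None of the 11 receptor genes passed there (limma, 0 calls, with 3 at an unadjusted p under 0.05: Fzd3, Fzd9 and Fzd10). Some passed there in other settings: Fzd3 in 7 of 23, Fzd9 and Fzd10 in 3 each, Fzd6 in 2 and Fzd5 in 1. The genes that rose against both other groups were Fzd1, Fzd5, Fzd6, Fzd7 and the co-receptor Lrp6. Fzd8 rose against Neurosphere only. Fzd6 and Fzd8 met the detection criterion only with the BMP4 arrays, so their rises are in part set by it.

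Fzd5, a Frizzled known from eye, gut and blood vessel development, had log2 intensities of 9.93, 9.85, 9.84 and 9.85 on the BMP4 arrays, 7.77, 8.33, 7.68 and 7.12 on the LIF_NOG arrays, and 7.98, 7.86, 7.95 and 7.94 on the Neurosphere arrays. The BMP4 arrays lay close together and above all other arrays, and the LIF_NOG and Neurosphere arrays overlapped. Fzd5 rose in BMP4 against Neurosphere (log2 fold change 1.93 ± 0.19, adjusted p = 1.2e-06) and in BMP4 against LIF_NOG (2.15 ± 0.19, adjusted p = 9.9e-07). Its 2 further probes gave smaller values of 0.43 and 0.30 in BMP4 against Neurosphere, of which the second did not pass (adjusted p = 0.068), and of 0.40 and 0.49 in BMP4 against LIF_NOG, which both passed. The representing probe gave -0.21 ± 0.19 (adjusted p = 0.45) in LIF_NOG against Neurosphere, and -0.41 without LIF_NOG 2 (adjusted p = 0.036).

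Fzd6, a Frizzled of planar cell polarity, had log2 intensities of 5.76, 5.95, 6.05 and 7.15 on the BMP4 arrays, 5.38, 4.76, 4.97 and 5.24 on the LIF_NOG arrays, and 4.57, 4.42, 4.44 and 4.77 on the Neurosphere arrays. It was detected on 4 BMP4, 3 LIF_NOG and 0 Neurosphere arrays, and the BMP4 arrays were above all others. The rise in BMP4 against Neurosphere (log2 fold change 1.67 ± 0.25, adjusted p = 5.8e-05), part of which the detection criterion sets, is at least 2.52-fold when the detection limit stands for the undetected signal. In BMP4 against LIF_NOG Fzd6 rose by 1.14 ± 0.25 (adjusted p = 0.0021) on the log2 scale, which the criterion also sets in part.

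For Fzd1, a Frizzled that can signal through β-catenin, log2 intensities were 6.62, 7.26, 7.36 and 7.55 on the BMP4 arrays, 5.92, 6.11, 5.84 and 5.44 on the LIF_NOG arrays, and 5.92, 5.85, 6.12 and 6.28 on the Neurosphere arrays. All BMP4 arrays were above all others, and LIF_NOG and Neurosphere arrays overlapped. Fzd1 rose in BMP4 against Neurosphere (log2 fold change 1.15 ± 0.20, adjusted p = 0.00019) and in BMP4 against LIF_NOG (1.37 ± 0.20, adjusted p = 7.7e-05).

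For Lrp6, the co-receptor whose phosphorylated tail binds Axin, log2 intensities were 7.94, 7.37, 7.32 and 7.78 on the BMP4 arrays, 6.79, 6.49, 6.81 and 6.89 on the LIF_NOG arrays, and 6.56, 6.56, 6.54 and 6.50 on the Neurosphere arrays. The BMP4 arrays were again separate from and above the rest. Lrp6 rose in BMP4 against Neurosphere (log2 fold change 1.06 ± 0.15, adjusted p = 3.2e-05) and in BMP4 against LIF_NOG (0.86 ± 0.15, adjusted p = 0.00035). Its homologue Lrp5 passed in no comparison, with mean log2 intensities of 5.36 ± 0.11 in BMP4, 5.16 ± 0.30 in LIF_NOG, and 5.31 ± 0.30 in Neurosphere.

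Fzd7, Fzd8 and Fzd3 changed by less. Mean log2 intensities of Fzd7 were 6.64 ± 0.22 in BMP4, 5.93 ± 0.10 in LIF_NOG, and 5.76 ± 0.30 in Neurosphere, and it rose in BMP4 against Neurosphere (log2 fold change 0.87 ± 0.16, adjusted p = 0.00027) and in BMP4 against LIF_NOG (0.70 ± 0.16, adjusted p = 0.0022), where the call was lost with row order as a block (adjusted p = 0.078). Fzd8 averaged 5.18 ± 0.31 in BMP4, 4.80 ± 0.24 in LIF_NOG, and 4.67 ± 0.23 in Neurosphere and rose in BMP4 against Neurosphere (0.51 ± 0.18, adjusted p = 0.023), a call lost in 6 of 21 other settings, among them without BMP4 4 (adjusted p = 0.071). Fzd8 was detected on 4 BMP4, 2 LIF_NOG and 1 Neurosphere arrays, so its rise is in part set by the detection criterion.

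Fzd3, a Frizzled needed for the growth of axon tracts, moved the other way. It averaged 8.08 ± 0.16 in BMP4, 8.67 ± 0.03 in LIF_NOG, and 8.38 ± 0.07 in Neurosphere on the log2 scale and fell in BMP4 against LIF_NOG (log2 fold change -0.58 ± 0.11, adjusted p = 0.0006) with no overlap between groups. Its fall in BMP4 against Neurosphere (-0.30 ± 0.11, adjusted p = 0.031) was lost in 7 of 22 other settings. Fzd2, Fzd9 and Fzd10 passed in no comparison. Fzd2 averaged 6.53 ± 0.15 in BMP4, 6.67 ± 0.09 in LIF_NOG, and 6.65 ± 0.17 in Neurosphere. Fzd9 averaged 5.02 ± 0.21 in BMP4, 5.48 ± 0.41 in LIF_NOG, and 4.93 ± 0.48 in Neurosphere. Its log2 difference in LIF_NOG against Neurosphere was 0.55 ± 0.24 (adjusted p = 0.095). That difference reached an adjusted p of 0.033 without LIF_NOG 2 and of 0.028 without Neurosphere 1. With row order as a block, Fzd9 passed there (adjusted p = 0.021) and also fell in BMP4 against LIF_NOG (-1.04, adjusted p = 0.003). Fzd10 averaged 5.59 ± 0.27 in BMP4, 5.57 ± 0.44 in LIF_NOG, and 6.07 ± 0.37 in Neurosphere. Fzd4 was detected on 1 array, and the non-coding transcript Fzd10os, which the symbol rule also takes in, on none.

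Secreted antagonists keep Wnt proteins or co-receptors from meeting. The genes grouped with them here were taken by family name (Sfrp, Dkk and Wif1), and whether each acts as an antagonist was not tested. Of 10 on the array, 4 were measured. In BMP4 against Neurosphere 2 rose (Dkk3 and Wif1, of which Wif1 was measured only through BMP4) and 1 fell (Sfrp1), in LIF_NOG against Neurosphere 1 rose (Dkk3), and in BMP4 against LIF_NOG 1 rose (Wif1) and 1 fell (Sfrp1). Over all measured genes 54.3%, 33.1% and 43.9% were called in these comparisons.

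Dkk3, the divergent member of the Dickkopf family, had log2 intensities of 8.61, 9.80, 9.83 and 9.24 on the BMP4 arrays, 8.79, 9.44, 7.94 and 8.63 on the LIF_NOG arrays, and 5.73, 5.84, 5.75 and 5.28 on the Neurosphere arrays. Every BMP4 and LIF_NOG array was far above every Neurosphere array, and the 2 differentiated groups overlapped. The log2 fold change was 3.72 ± 0.31 (adjusted p = 2.3e-07) in BMP4 against Neurosphere and 3.05 ± 0.31 (adjusted p = 1.3e-05) in LIF_NOG against Neurosphere. In BMP4 against LIF_NOG it was 0.67 ± 0.31 (adjusted p = 0.093), which passed without LIF_NOG 2 (log2 fold change 0.92, adjusted p = 0.015) and without BMP4 1 (adjusted p = 0.022). A second Dkk3 probe was detected on no array.

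Sfrp1, a soluble protein with a Frizzled-like domain that binds Wnt proteins, had log2 intensities of 6.49, 6.08, 6.25 and 7.08 on the BMP4 arrays, 8.95, 7.92, 8.15 and 7.80 on the LIF_NOG arrays, and 7.86, 7.98, 7.66 and 7.46 on the Neurosphere arrays. The BMP4 arrays were below all others, and LIF_NOG and Neurosphere arrays overlapped. Sfrp1 fell in BMP4 against Neurosphere (log2 fold change -1.27 ± 0.25, adjusted p = 0.00072) and in BMP4 against LIF_NOG (-1.73 ± 0.25, adjusted p = 9.1e-05), and a second probe fell by 0.88 and 1.36 in these comparisons and passed in both.

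Wif1, which binds Wnt proteins outside the cell, had log2 intensities of 5.92, 5.44, 5.15 and 5.06 on the BMP4 arrays, 4.32, 4.28, 4.25 and 4.49 on the LIF_NOG arrays, and 4.31, 4.57, 4.28 and 4.41 on the Neurosphere arrays. It was detected on 4 BMP4, 0 LIF_NOG and 0 Neurosphere arrays. Since the detection criterion was met through BMP4 alone, the difference is a description: signal in BMP4 was at least 1.41-fold the detection limit of the Neurosphere arrays and at least 1.44-fold that of the LIF_NOG arrays. Dkkl1, a Dickkopf-like protein known from the testis, passed in no comparison and averaged 5.02 ± 0.11 in BMP4, 4.92 ± 0.20 in LIF_NOG, and 5.01 ± 0.14 in Neurosphere on the log2 scale. Sfrp2 was detected on 3 arrays, all of them Neurosphere, and so missed the detection criterion and has no call. Its log2 intensities were 5.55, 4.98, 5.25 and 4.78 on the Neurosphere arrays and 4.23 to 4.58 on the BMP4 and LIF_NOG arrays. Dkk1 was detected on 1 array, and Sfrp4, Sfrp5, Dkk2 and Dkk4 on none.

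R-spondins strengthen Wnt signals by removing the ligases that take Frizzled receptors off the membrane, and Lgr proteins are their receptors. Of 6 such genes on the array, Rspo2 and Rspo3 were measured, and neither passed in any comparison. Rspo2 averaged 5.35 ± 0.17 in BMP4, 5.27 ± 0.22 in LIF_NOG, and 5.42 ± 0.05 in Neurosphere on the log2 scale and Rspo3 5.87 ± 0.15 in BMP4, 5.74 ± 0.22 in LIF_NOG, and 5.51 ± 0.31 in Neurosphere. Without Neurosphere 4, Rspo3 passed in BMP4 against Neurosphere (log2 fold change 0.50, adjusted p = 0.015). Lgr5 was detected on 2 arrays, Lgr4 on 1, and Rspo1 and Rspo4 on none.

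Among 7 measured cytoplasmic genes, 1 fell in BMP4 against Neurosphere, 1 fell in BMP4 against LIF_NOG, and 0 passed in LIF_NOG against Neurosphere (limma, with 0 at an unadjusted p under 0.05). The share of all measured genes called was 54.3%, 43.9% and 33.1% in this order. The gene that fell was Axin2 in both comparisons, a scaffold of the destruction complex that is itself a widely used target gene of β-catenin. Axin2 averaged 5.70 ± 0.25 in BMP4, 6.27 ± 0.44 in LIF_NOG, and 6.63 ± 0.21 in Neurosphere on the log2 scale. It fell in BMP4 against Neurosphere (log2 fold change -0.92 ± 0.20, adjusted p = 0.0014), with all BMP4 arrays below all Neurosphere arrays and the call kept in every other setting. In BMP4 against LIF_NOG (-0.57 ± 0.20, adjusted p = 0.034) the groups overlapped and the call was lost in 9 of 22 other settings. The log2 difference was -0.35 ± 0.20 (adjusted p = 0.21) in LIF_NOG against Neurosphere.

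Apc, the other large scaffold of the complex, did not pass on its representing probe, which averaged 6.81 ± 0.25 in BMP4, 6.95 ± 0.34 in LIF_NOG, and 6.99 ± 0.28 in Neurosphere. A second Apc probe fell by 0.97 in BMP4 against Neurosphere (adjusted p = 0.00052) and by 0.79 in LIF_NOG against Neurosphere (adjusted p = 0.0057) on the log2 scale. Dvl1, a Dishevelled protein, averaged 8.34 ± 0.50 in BMP4, 8.27 ± 0.28 in LIF_NOG, and 8.17 ± 0.22 in Neurosphere and passed in no comparison. For the kinases, Gsk3a averaged 5.72 ± 0.11 in BMP4, 5.66 ± 0.13 in LIF_NOG, and 5.68 ± 0.15 in Neurosphere and Gsk3b 10.25 ± 0.33 in BMP4, 10.50 ± 0.30 in LIF_NOG, and 10.30 ± 0.12 in Neurosphere. Neither passed, although 1 further probe of Gsk3b was 0.59 higher in LIF_NOG against Neurosphere (adjusted p = 0.039). The formins Daam1 and Daam2, which link Dishevelled to actin, averaged 9.62 ± 0.19 in BMP4, 9.28 ± 0.41 in LIF_NOG, and 9.22 ± 0.07 in Neurosphere and 6.31 ± 0.24 in BMP4, 5.91 ± 0.16 in LIF_NOG, and 5.95 ± 0.24 in Neurosphere. They did not pass, and Daam2 passed in BMP4 against LIF_NOG in 6 of 22 other settings. In a minority of settings each also passed in BMP4 against Neurosphere, as Daam2 did without BMP4 2 (0.46, adjusted p = 0.023). Without LIF_NOG 1, Daam1 passed in BMP4 against Neurosphere (0.40, adjusted p = 0.02) and in BMP4 against LIF_NOG (0.52, adjusted p = 0.0092). A further Daam1 probe gave -0.27 in BMP4 against Neurosphere, which did not pass. Dvl3 was detected on 1 array and Dvl2 on none.

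**Figure D4:**
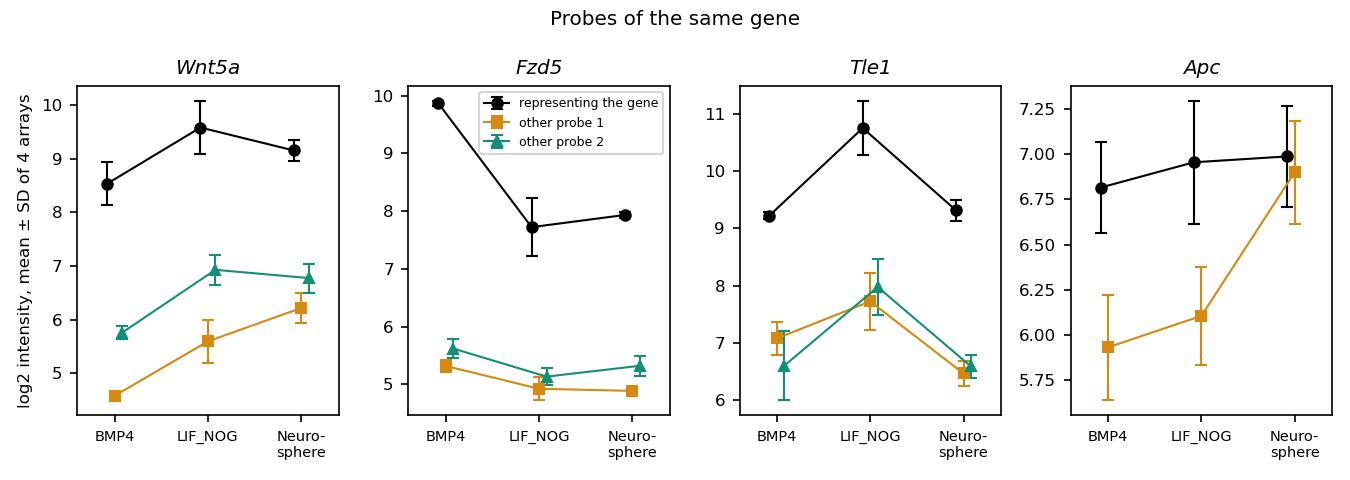
Mean log2 intensity ± SD over the 4 arrays of BMP4, LIF_NOG and Neurosphere for each measured probe of Wnt5a, Fzd5, Tle1 and Apc. Black circles are the probe that represents the gene. The other 2 probes of Fzd5 move in the same direction by less, and the second probe of Apc is lower in both differentiated groups while the first is nearly level.

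Nuclear factors were all measured, 8 of 8 on the array. In BMP4 against Neurosphere 1 rose and 2 fell, in LIF_NOG against Neurosphere 2 rose and 1 fell, and in BMP4 against LIF_NOG 1 rose and 3 fell. The share of all measured genes called was 54.3%, 33.1% and 43.9% in this order. Among the Tcf and Lef factors only Tcf7l2 passed, and among the Tle corepressors Tle1, Tle2 and Tle6.

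Tle6, a divergent Groucho-related protein known for its role in the oocyte, had log2 intensities of 5.62, 6.24, 5.80 and 5.66 on the BMP4 arrays, 8.27, 10.05, 9.33 and 7.41 on the LIF_NOG arrays, and 10.66, 10.91, 10.24 and 10.30 on the Neurosphere arrays. The Neurosphere arrays were highest, the LIF_NOG arrays spread over a wide range below them with LIF_NOG 2 nearest, and the BMP4 arrays were lowest, with no overlap between any groups. The log2 fold change was -4.70 ± 0.42 (adjusted p = 5e-07) in BMP4 against Neurosphere, -1.76 ± 0.42 (adjusted p = 0.0056) in LIF_NOG against Neurosphere and -2.93 ± 0.42 (adjusted p = 7.1e-05) in BMP4 against LIF_NOG. Within the arrays whose rows stand in the raw order in the authors' table (3 LIF_NOG, 3 Neurosphere), the LIF_NOG change was -1.27 (adjusted p = 0.076).

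Tle2, a full-length Groucho corepressor, had log2 intensities of 6.14, 6.50, 5.62 and 5.04 on the BMP4 arrays, 7.43, 7.56, 7.77 and 6.40 on the LIF_NOG arrays, and 7.93, 8.20, 7.88 and 8.29 on the Neurosphere arrays. The BMP4 arrays were all below the Neurosphere arrays, and BMP4 2 lay above the lowest LIF_NOG array, LIF_NOG 4. Tle2 fell in BMP4 against Neurosphere (log2 fold change -2.25 ± 0.31, adjusted p = 3e-05) and in BMP4 against LIF_NOG (-1.46 ± 0.31, adjusted p = 0.0018), and a second probe fell by 1.64 and 1.32 and passed in both. With row order as a block the call in BMP4 against LIF_NOG was lost (adjusted p = 0.07). The change of -0.79 ± 0.31 (adjusted p = 0.071) in LIF_NOG against Neurosphere did not pass and did so in 9 of 23 other settings.

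Tle1, a full-length corepressor of the same family, had log2 intensities of 9.15, 9.29, 9.24 and 9.22 on the BMP4 arrays, 11.07, 10.06, 10.84 and 11.05 on the LIF_NOG arrays, and 9.11, 9.21, 9.49 and 9.46 on the Neurosphere arrays. The LIF_NOG arrays were above all others, LIF_NOG 2 being the lowest of them, and BMP4 and Neurosphere arrays overlapped. Tle1 rose in LIF_NOG against Neurosphere (log2 fold change 1.44 ± 0.19, adjusted p = 0.00012) and fell in BMP4 against LIF_NOG (-1.53 ± 0.19, adjusted p = 2.4e-05). Its 2 further probes gave 1.26 and 1.39 in LIF_NOG against Neurosphere and passed. The representing probe gave -0.09 ± 0.19 (adjusted p = 0.73) in BMP4 against Neurosphere, while 1 of the further probes was 0.61 higher (adjusted p = 0.032).

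Tcf7l2, the Tcf factor known from oligodendrocyte maturation and from gut stem cells, had log2 intensities of 9.38, 9.37, 9.05 and 9.78 on the BMP4 arrays, 8.81, 8.50, 8.53 and 8.77 on the LIF_NOG arrays, and 8.41, 8.32, 7.91 and 8.15 on the Neurosphere arrays. All BMP4 arrays were above all LIF_NOG arrays, which were above all Neurosphere arrays. Tcf7l2 rose in BMP4 against Neurosphere (log2 fold change 1.19 ± 0.16, adjusted p = 2.4e-05) and in BMP4 against LIF_NOG (0.74 ± 0.16, adjusted p = 0.0021), where the call was lost with row order as a block (adjusted p = 0.057). The rise in LIF_NOG against Neurosphere (0.45 ± 0.16, adjusted p = 0.046) was lost in 11 of 23 other settings.

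Lef1, Tcf7l1, Tle3 and Tle5 passed in no comparison. Lef1, the Lef factor, averaged 5.44 ± 0.11 in BMP4, 5.27 ± 0.32 in LIF_NOG, and 5.33 ± 0.26 in Neurosphere on the log2 scale, and Tcf7l1, which mostly represses, averaged 5.23 ± 0.06 in BMP4, 5.22 ± 0.11 in LIF_NOG, and 5.32 ± 0.40 in Neurosphere. Tle3 averaged 4.81 ± 0.28 in BMP4, 5.00 ± 0.21 in LIF_NOG, and 5.02 ± 0.16 in Neurosphere. Tle5, a short family member that lacks the repeats of the others, averaged 7.29 ± 0.38 in BMP4, 6.87 ± 0.43 in LIF_NOG, and 7.33 ± 0.22 in Neurosphere, and without LIF_NOG 2 it passed in LIF_NOG against Neurosphere (log2 fold change -0.64, adjusted p = 0.02).

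Feedback inhibitors at the membrane were measured for 2 of 4 genes. In BMP4 against LIF_NOG both fell, in LIF_NOG against Neurosphere 1 rose, and in BMP4 against Neurosphere 1 fell. These counts stand beside 43.9%, 33.1% and 54.3% of all measured genes called. Apcdd1, a membrane glycoprotein that binds Wnt and Lrp proteins, had log2 intensities of 4.99, 5.58, 5.59 and 6.12 on the BMP4 arrays, 8.67, 6.44, 8.92 and 9.31 on the LIF_NOG arrays, and 4.73, 4.82, 6.55 and 6.82 on the Neurosphere arrays. The Neurosphere arrays fell into a low and a high pair, LIF_NOG 2 lay within the range of the Neurosphere arrays, and all BMP4 arrays lay below all LIF_NOG arrays. Apcdd1 rose in LIF_NOG against Neurosphere (log2 fold change 2.61 ± 0.59, adjusted p = 0.0042), where it was detected on 2 of 4 Neurosphere arrays, and within the arrays in raw row order the value was 1.95 (adjusted p = 0.11). It fell in BMP4 against LIF_NOG (-2.77 ± 0.59, adjusted p = 0.0018), and in BMP4 against Neurosphere the value was -0.16 ± 0.59 (adjusted p = 0.85).

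Rnf43, the ubiquitin ligase that takes Frizzled receptors off the membrane, had log2 intensities of 4.62, 4.46, 5.26 and 4.61 on the BMP4 arrays, 6.06, 5.29, 6.71 and 6.23 on the LIF_NOG arrays, and 5.28, 5.32, 5.20 and 6.16 on the Neurosphere arrays. All BMP4 arrays lay below all LIF_NOG arrays, and the probe was detected on 1 of 4 BMP4 arrays. Rnf43 fell in BMP4 against LIF_NOG (log2 fold change -1.34 ± 0.29, adjusted p = 0.0018). The fall in BMP4 against Neurosphere (-0.75 ± 0.29, adjusted p = 0.04) was lost in 11 of 22 other settings, and Neurosphere 4 was higher than the rest of its group. Nkd2 was detected on 2 arrays and Notum on 3.

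A list of 104 other Wnt pathway genes, outside the symbol rule, had 81 measured. In BMP4 against Neurosphere 14 rose, 24 fell and 43 did not pass, in LIF_NOG against Neurosphere 9 rose, 7 fell and 65 did not pass, and in BMP4 against LIF_NOG 18 rose, 24 fell and 39 did not pass. The share of all measured genes called was 54.3%, 33.1% and 43.9% in this order. Their median log2 fold change was 0.02, 0.00 and -0.14 in the same order. Largest in BMP4 against Neurosphere were the rises of Ctnnbip1, which keeps β-catenin from Tcf factors (2.97 ± 0.15, adjusted p = 3.3e-09), Cxxc5, which binds Dishevelled (2.77 ± 0.21, adjusted p = 1.4e-07), and the kinase Prkca (1.92 ± 0.18, adjusted p = 7.2e-07). The largest falls were those of Camk2b, a calcium-dependent kinase subunit (-3.13 ± 0.27, adjusted p = 3.4e-07), Jade1, which promotes β-catenin degradation (-2.83 ± 0.16, adjusted p = 5.8e-09), and Ruvbl2, a β-catenin-binding ATPase (-2.45 ± 0.18, adjusted p = 1.1e-07).

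In LIF_NOG against Neurosphere the polarity cadherins Celsr3 (1.82 ± 0.32, adjusted p = 0.0008) and Celsr2 (1.27 ± 0.27, adjusted p = 0.0029) and the Frizzled ligand Ndp (1.11 ± 0.13, adjusted p = 3.3e-05) rose most. The Wnt5a receptor Ror2 (-1.22 ± 0.22, adjusted p = 0.001, detected on 2 of 4 LIF_NOG arrays), Camk2b (-0.96 ± 0.27, adjusted p = 0.014) and Ruvbl2 (-0.88 ± 0.18, adjusted p = 0.0027) fell most. In BMP4 against LIF_NOG the largest rises were those of Cxxc5 (2.81 ± 0.21, adjusted p = 2.2e-07), Prkca (2.37 ± 0.18, adjusted p = 2.1e-07) and the glypican Gpc6 (2.25 ± 0.35, adjusted p = 0.00015, detected on 1 of 4 LIF_NOG arrays). The largest falls there were those of Camk2b (-2.17 ± 0.27, adjusted p = 2.1e-05), Jade1 (-2.05 ± 0.16, adjusted p = 2.2e-07) and the casein kinase Csnk1e (-1.95 ± 0.18, adjusted p = 1.5e-06).

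Of 72 genes reported as Wnt or β-catenin targets in other systems, 41 were measured. In BMP4 against Neurosphere 16 rose, 8 fell and 17 did not pass, in LIF_NOG against Neurosphere 9 rose, 6 fell and 26 did not pass, and in BMP4 against LIF_NOG 17 rose, 10 fell and 14 did not pass. These counts stand beside 54.3%, 33.1% and 43.9% of all measured genes called. The median log2 fold change was 0.03, 0.01 and 0.10 in that order. Among them in BMP4 against Neurosphere the helix-loop-helix inhibitor Id2, also a known BMP target (4.54 ± 0.24, adjusted p = 3.3e-09), the homeobox factor Gbx2 (4.3 ± 0.23, adjusted p = 4.8e-09) and the adhesion protein Nrcam (3.57 ± 0.19, adjusted p = 3.4e-09) rose most, and the cell cycle genes Ccnd1 (-4.70 ± 0.40, adjusted p = 3.1e-07), Uhrf1 (-4.67 ± 0.40, adjusted p = 3.4e-07) and Birc5 (-4.47 ± 0.40, adjusted p = 5.1e-07) fell most. The same 6 genes led in BMP4 against LIF_NOG, where Id2 changed by 3.90 ± 0.24 (adjusted p = 2.5e-08), Gbx2 by 3.83 ± 0.23 (adjusted p = 2.5e-08), Nrcam by 2.63 ± 0.19 (adjusted p = 1.1e-07), Ccnd1 by -3.92 ± 0.40 (adjusted p = 3.7e-06), Uhrf1 by -3.11 ± 0.40 (adjusted p = 2.9e-05) and Birc5 by -3.07 ± 0.40 (adjusted p = 3.2e-05). Jun (2.60 ± 0.25, adjusted p = 9.3e-06), the kinase Sgk1 (2.29 ± 0.28, adjusted p = 6.9e-05) and the homeobox factor Prox1 (1.79 ± 0.35, adjusted p = 0.0018) rose most in LIF_NOG against Neurosphere, and Uhrf1 (-1.56 ± 0.40, adjusted p = 0.0089), Birc5 (-1.40 ± 0.40, adjusted p = 0.016) and the cyclin Ccnd2 (-1.10 ± 0.35, adjusted p = 0.029) fell most. The proliferation markers, of which 7 of 8 measured fell in each comparison, moved with these cell cycle genes, and their part in the counts was not tested.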

How the data were processed

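Total RNA of sorted mouse cells was measured on 12 Illumina bead arrays, 4 in each of 3 groups, grouped by sample title. The deposited raw table holds non-normalized probe intensity and a detection p-value for each probe and array, per the file headers. A second deposited table holds the authors' quantile-normalized intensity, and was used for row order and as an alternative. BeadStudio (version 3) and the R package lumi (version 2.15.1) appear in the submitters' processing notes. The build behind the authors' probe annotation is not given in the sources used here, and promoter windows come from a RefSeq table of GRCm38.p6. The Neurosphere 1 column of the raw table stands in another row order than the rest, which the rank pattern of 5 linking arrays in the authors' table allowed to be matched for 46617 of 46643 rows. Its rank correlation with the other Neurosphere arrays was then 0.916 to 0.928. The number of arrays limits the precision. Per-sample columns left unused numbered 0.

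Computed here with limma 3.58.1 in R 4.3.3 were normexp background correction from the detection p-values, quantile normalization and log2 with an offset of 16 (neqc). Probes with a detection p under 0.05 on at least 4 arrays and with 1 gene symbol in the platform annotation were kept (15360 of 46609 probes), and the probe with the highest mean represents a gene. Probes not kept, such as second probes of Apcdd1 and Rnf43 that were detected on no array, do not enter the changes. lmFit, contrasts and eBayes ran on all 12 arrays, two-sided, with Benjamini-Hochberg adjustment over 10787 genes, and the procedure was tested on simulated data. A gene undetected on all arrays of a group has a fold given as "at least", against the lowest detected signal (log2 4.80 to 4.92).

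All members are named. Values on each array are given for those called with a log2 change of at least 1, and of each other list the 3 largest called changes each way. Members, gene lists and tests were chosen with earlier results of these data known. Alternatives were other backgrounds, scalings, filters and probe rules, the authors' intensities, array weights, blocks and leaving out each array.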

Additional observations from a re-analysis of the deposited data

Results flagged for a closer look

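Within a group of 4 arrays, 8 of 126 pairs of a member and a group had 1 array far from the other 3 by Dixon's criterion, which chance alone meets in about 1 of 20 groups. In BMP4, Fzd8 read 5.65 on BMP4 4 against 5.02 to 5.03 on the others, Dvl1 read 9.08 on BMP4 4 against 8.05 to 8.11, Tle3 read 4.4 on BMP4 1 against 4.90 to 5.00, and Fzd5 read 9.93 on BMP4 1 against 9.84 to 9.85 (log2 intensity). In LIF_NOG, Wnt5a read 8.84 on LIF_NOG 2 against 9.78 to 9.88, and Tcf7l1 read 5.06 on LIF_NOG 4 against 5.26 to 5.30. In Neurosphere, Wnt5b read 5.58 on Neurosphere 1, the realigned array, against 4.94 to 4.97, and Rnf43 read 6.16 on Neurosphere 4 against 5.20 to 5.32. Without the array named, the fall of Rnf43 and the rise of Fzd8 in BMP4 against Neurosphere lost their calls.

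For 6 members the BMP4 and LIF_NOG means lay on opposite sides of the Neurosphere mean, each by at least 0.2 on the log2 scale, and the difference BMP4 minus LIF_NOG passed limma's test. Over all measured genes 43.9% were called in BMP4 against LIF_NOG. The share of all genes meeting the full rule was not computed, so the count only describes the members. The difference was 1.37 for Fzd1, 2.15 for Fzd5, -0.58 for Fzd3, -1.34 for Rnf43, -1.73 for Sfrp1 and -1.05 for Wnt5a. In none of the 6 did LIF_NOG against Neurosphere pass by itself on the representing probe. Further Wnt5a probes gave 0.15 and -0.62 in that comparison, the latter passing (limma, adjusted p = 0.024) in the same direction as in BMP4. Further Fzd5 probes gave 0.04 and -0.19 there, and the second Sfrp1 probe 0.48.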

How the results depend on the processing

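Of 47 called changes of members, 35 passed in each of the 23 alternative settings that gave a value, 12 lost the call in at least 1, and 0 changed sign. The 12 were those of Apcdd1, Tcf7l2 and Tle6 in LIF_NOG against Neurosphere, of Fzd3, Fzd8, Rnf43, Wnt5a and Wnt7a in BMP4 against Neurosphere, and of Axin2, Fzd7, Tcf7l2 and Tle2 in BMP4 against LIF_NOG. Leaving out each array in turn gave 16 to 21 members called in BMP4 against Neurosphere, 8 to 16 in LIF_NOG against Neurosphere (16 without LIF_NOG 2) and 17 to 20 in BMP4 against LIF_NOG. Array weights gave 16 members and 30 other pathway genes in LIF_NOG against Neurosphere, against 9 and 16 in the reported fit. Within the 6 arrays in raw row order, that comparison called 1694 genes against 3569, 7 other pathway genes against 16 and 5 reported targets against 15. That setting has fewer arrays. Median scaling called 62.4% of the called genes higher there, against 50.0%. With row order as a block, 15 of the 20 members called in BMP4 against Neurosphere kept the call. The labels do not say what equal replicate numbers share, and the reported fit did not take them as pairs. Deviations of same-numbered arrays correlated above 0.1 for 2 of 4 pairs in BMP4 against Neurosphere and 2 of 4 in LIF_NOG against Neurosphere. In BMP4 against LIF_NOG they did so for 3 of 4 (0.06 to 0.20), and each BMP4 array correlated best with its own number. Some pairing of these 2 groups may thus be left out of the reported fit, and its source was not tested. With the number as a replicate block, 22, 11 and 20 members and 5919, 3596 and 4828 genes were called in BMP4 against Neurosphere, LIF_NOG against Neurosphere and BMP4 against LIF_NOG. Signals near the detection limit, as for Wif1, Fzd8 and Rnf43, understate folds.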
